A study of Mus musculus with 17 samples.

Results

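The SR proteins are splicing factors that carry an RNA-binding domain and a tail rich in arginine-serine repeats. They bind exonic enhancers in pre-mRNA, bring in the U1 and U2 machinery at the neighbouring splice sites, and several of them shuttle to the cytoplasm with the spliced mRNA. Their tails are phosphorylated by SRPK and CLK kinases, and most SR protein genes limit their own output by splicing in a poison exon or keeping an intron, which sends the transcript to nonsense-mediated decay or holds it in the nucleus. The genes described here are Srsf1, Srsf2, Srsf3, Srsf4, Srsf5, Srsf6, Srsf7, Srsf9, Srsf10 and Srsf11, 10 of the 43430 genes in the count tables. They were taken up as a family because Srsf5 had the lowest p of all 12054 genes tested after ISRIB, so every value of the family in the ISRIB comparison is given as a description, from which nothing is inferred. The bleomycin comparison was not used for that choice and carries tests of single genes. The members and the lists of other splicing genes were chosen with earlier results of these data known. Counts of genes called in a list are therefore descriptions in both comparisons.

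The study sequenced RNA of alveolar type 2 (AT2) cells, the surfactant-secreting epithelial cells of the lung alveolus, sorted by flow cytometry from C57BL/6J mice of 2 months. In the first experiment naive mice received vehicle (4 libraries, titled saline) or ISRIB (4 libraries), a small molecule that stabilizes eIF2B and so counters the integrated stress response, and the cells were sorted 24 h later. These libraries were made from 3 ng of RNA by poly(A) selection with a NEBNext Ultra kit. In the second experiment cells came from naive mice (4 libraries) or from mice 14 days after bleomycin (5 libraries), which injures the alveolar epithelium. Both of these groups are labelled vehicle for treatment and titled saline, and these libraries were made from 0.35 ng of total RNA with a SMARTer Stranded Pico kit. The labels used here state no dose, no sex and no pooling of mice. Kit, RNA input, depth and experiment differ together between the experiments and cannot be told apart, so each contrast stays within its kit.

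Library totals ran from 10493574 to 15727139 counts with poly(A) selection and from 3295257 to 6333166 counts with total RNA, of which ribosomal-RNA-like and mitochondrial genes took 22% to 33.3% in the latter. The 7 AT2 markers (Sftpc, Sftpb, Sftpa1, Abca3, Lamp3, Slc34a2 and Etv5) had a summed level of 166700 to 179700 CPM (counts scaled to the effective library size) with poly(A) selection and of 75940 to 83060 CPM in naive and 45090 to 80520 CPM in bleomycin total-RNA libraries. All 7 were detected in every group, and 1 of the 7 was called lower after ISRIB and 1 after bleomycin. Lymphocyte markers summed to at most 1.01 CPM in any library, with Ms4a1 at 0 counts in all 4 groups. Of 7 macrophage and monocyte markers, which include Lyz2, a gene that AT2 cells also express, 3 passed the filter on low counts in each contrast and none was called. The 5 fibroblast markers summed to 2.68 to 9.06 CPM in naive and 17.0 to 115 CPM in bleomycin libraries, and the 3 of them that were tested were called higher. Of 5 alveolar type 1 markers 4 were called higher after bleomycin, with sums of 958 to 1187 CPM in naive and 1392 to 1763 CPM in bleomycin libraries. Of the 3 endothelial and 3 airway markers that were tested 1 each was called higher, with endothelial sums of 13.1 to 21.02 and 14.3 to 51.0 CPM and airway sums of 371 to 797 and 397 to 742 CPM in naive and bleomycin libraries. After ISRIB none of the tested fibroblast, alveolar type 1, endothelial or airway markers was called. Airway sums there were 3335 to 3736 CPM in vehicle and 2036 to 3665 CPM in ISRIB libraries. The part of these cell markers in the results below was not tested. In bulk libraries of sorted cells, fewer cells that express a gene and less of its RNA per cell cannot be told apart.

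Srsf5 lies on chromosome 12 (80945504 to 80950507, plus strand, GRCm38, GENCODE M21). For Srsf6 and Srsf2, as for Srsf5, the ISRIB libraries lay below all vehicle libraries. Srsf9 was the member with the highest log2 fold change after bleomycin. Neither Srsf2 nor Srsf9 was called in either contrast by edgeR. The stretches just before the start sites of Srsf5, Srsf6, Srsf2 and Srsf9 are shown as a description. A link between these stretches and the fold changes was not tested. Each stretch is the 100 bases before the RefSeq start (build GRCm38.p6), 5′ to 3′ on the gene's strand, and no exon of GENCODE M21 lies in it. Capitals mark CCGGAAG (the core bound by ETS factors), TGACG (a short cAMP-response motif), CCAAT and TATAAA, each searched on both strands. The motifs were picked after the sequences had been seen.
Srsf5, chr12:80945399-80945498, plus strand: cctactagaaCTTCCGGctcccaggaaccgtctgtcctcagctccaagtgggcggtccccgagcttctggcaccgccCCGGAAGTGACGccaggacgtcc
Srsf6, chr2:162931408-162931507, plus strand: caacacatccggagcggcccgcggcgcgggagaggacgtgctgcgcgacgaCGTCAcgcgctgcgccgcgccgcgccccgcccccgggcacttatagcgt
Srsf2, chr11:116853095-116853194, minus strand: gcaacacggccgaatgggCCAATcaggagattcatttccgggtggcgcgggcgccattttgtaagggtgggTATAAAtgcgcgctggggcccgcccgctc
Srsf9, chr5:115327077-115327176, plus strand: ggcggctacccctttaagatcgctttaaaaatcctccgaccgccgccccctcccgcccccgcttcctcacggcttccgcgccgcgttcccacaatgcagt

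The Srsf5 stretch held 2 copies of CCGGAAG, 1 on each strand, and the copy nearer the start ran directly into TGACG. Of 32851 RefSeq promoter entries, 4.52% held CCGGAAG in the same 100 bases and 0.451% held it at least 2 times. The Srsf6 stretch held TGACG on the opposite strand. This motif stood before 6 of the 10 genes (Srsf1, Srsf3, Srsf5, Srsf6, Srsf10 and Srsf11), in 6 of their 13 RefSeq entries, and in 10.5% of all entries. The Srsf2 stretch had neither, but carried CCAAT (18.9% of entries) and TATAAA (5.56%), and the Srsf9 stretch held none of the 4 motifs. These matches are letters in a window and show no binding.

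Annotated transcript types of the family are counted here, with no matching for expression or for the number of transcripts per gene. GENCODE M21 lists a nonsense-mediated decay transcript for 9 of the 10 genes, all but Srsf10, and for 20.9% of protein-coding genes. It lists retained-intron transcripts for 8 of 10, with 11 of the 19 Srsf11 transcripts of this type and 3 of the 12 of Srsf5, and for 42.1% of protein-coding genes. The deposited counts are per gene, so productive, decay-bound and intron-keeping transcripts are summed in every value below. Exons of Srsf1, Srsf2 and Srsf4 overlap gene models on the opposite strand (98, 748 and 1532 bases), so for these 3 genes reads of both strands may be mixed if the authors counted without strand.

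All 10 genes were expressed in AT2 cells and passed the filter on low counts in both experiments. Levels of different genes are compared per kilobase of exon. The length is the union of all annotated exons, those of decay and retained-intron transcripts included, from 1653 bases for Srsf9 to 8446 for Srsf11. The order below therefore depends on annotated length as well as on counts. In vehicle libraries Srsf3 (7899 bases) and Srsf2 (2958 bases) had like means of 88.3 and 87.5 CPM but stand apart per kilobase. In vehicle libraries Srsf5 was highest at 33.6 ± 4.37 CPM per kb (SD, n = 4), and its range overlapped that of Srsf2 (29.6 ± 1.26), the next in order. Srsf1 (28.2 ± 1.67) and Srsf9 (27.8 ± 1.86) followed, each overlapping the one before. Srsf6 came next at 22.9 ± 1.59, and its highest value equalled the lowest of Srsf9 after rounding, 25.14 CPM per kb. From Srsf6 down no neighbours overlapped: Srsf7 stood at 16.2 ± 1.25, Srsf3 at 11.2 ± 0.658, Srsf11 at 8.79 ± 0.527, Srsf10 at 7.38 ± 0.436 and Srsf4 at 6.23 ± 0.537. In ISRIB libraries Srsf5, at 17.6 ± 3.05, was in place 5 behind Srsf9, Srsf1, Srsf2 and Srsf6. Its range overlapped those of Srsf2, Srsf6 and Srsf7. The total-RNA libraries gave another order. In naive mice Srsf5 stood clear of the rest at 70.3 ± 1.99 CPM per kb (n = 4), the next being Srsf2 at 30.7 ± 2.44. Srsf4, last in the vehicle group, came next at 26.0 ± 2.08, and its range overlapped those of Srsf2 and Srsf1. Srsf9 was in place 8 at 15.2 ± 1.93, with a range that overlapped that of Srsf7. Srsf10 was last at 6.40 ± 0.804. After bleomycin Srsf5 was still first without overlap, at 48.4 ± 9.26 (n = 5), and Srsf10 last at 5.94 ± 1.55. These values are set side by side only, since the kits differ.

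After ISRIB the family did not move as a block. By the fitted fold changes Srsf5 differed from vehicle by -47.5%, Srsf6 by -19.4%, Srsf2 by -16.2% and Srsf10 by 19.4%, and Srsf11 had the widest difference of the other 6, 9.05%. Of the 10 fold changes 5 were negative and 5 positive, with a median log2 fold change of -0.05 beside -7.98e-05 over all genes tested, and a median absolute value of 0.13 beside 0.10. The call rule used throughout, a Benjamini-Hochberg adjusted p under 0.05 in edgeR, was met by 2 members, Srsf5 and Srsf6, both lower, where 2.20% of all 12054 genes met it (1.10% lower and 1.10% higher). As the family was chosen on this contrast, nothing is read from that count.

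**Figure D1:**
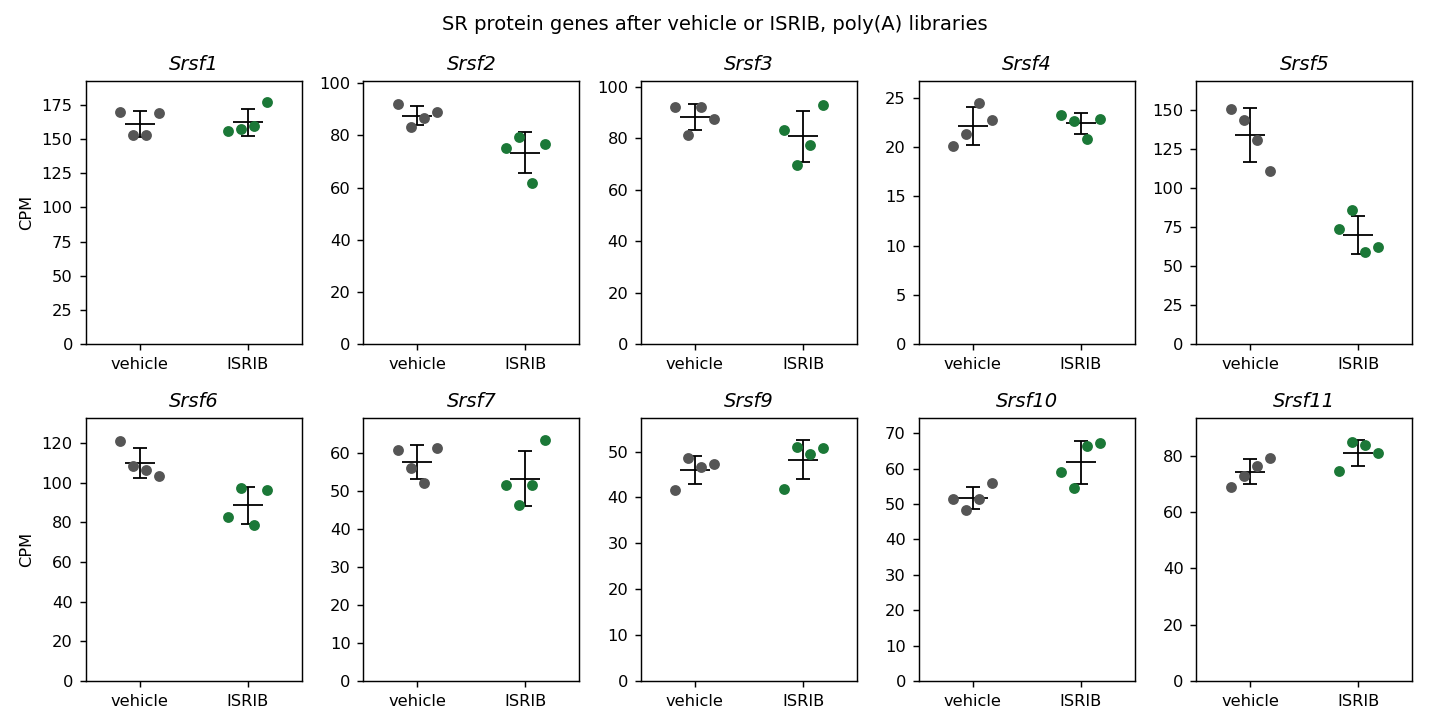
CPM of each SR protein gene (1 panel per gene, linear axis from 0) in the 4 vehicle and 4 ISRIB poly(A) libraries; points are libraries, in replicate order from left to right, and bars are the mean ± SD. The Srsf5 libraries separate by the widest margin, 58.7 to 85.6 against 111 to 150.2 CPM, while the groups overlap for Srsf1 and Srsf4.

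Srsf5 belongs with Srsf4 and Srsf6 to a subgroup of closely related SR proteins, and its RNA was first described as insulin-induced in liver cells. It stood at 150.2, 144, 131 and 111 CPM in vehicle 1 to 4, and at 73.7, 85.6, 58.7 and 62.5 CPM in ISRIB 1 to 4. Every ISRIB library lay below every vehicle library, with ISRIB 2 and vehicle 4 nearest to each other. The mean level was 134 ± 17.4 CPM with vehicle and 70.1 ± 12.1 CPM with ISRIB (SD, n = 4 per group), and the fitted log2 fold change was -0.93 (SE 0.10). The raw counts behind these values ran from 656 to 1992 per library. A more negative log2 fold change was found for 0.232% of the genes tested. Nothing is read from this rank, since Srsf5 was chosen for its lowest p in this contrast. When single libraries were left out the log2 fold change ranged from -1.04 to -0.85. Srsf5 made up 13.4% to 17.6% of the family's summed CPM in vehicle libraries and 7.90% to 11.4% in ISRIB libraries, and that sum was 816 to 867 CPM in the former and 708 to 791 CPM in the latter.

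Srsf6 (chromosome 2, 162931528 to 162937121) encodes a close relative of Srsf5 that binds exonic enhancers and regulates alternative exons. It was at 121, 109, 107 and 103 CPM in vehicle 1 to 4 and at 82.6, 97.1, 78.7 and 96.2 CPM in ISRIB 1 to 4. The groups did not overlap, but the gap between them was narrow, 97.1 against 103 CPM. The log2 fold change was -0.31 (SE 0.07), and between -0.36 and -0.26 with single libraries left out. Srsf4 (chromosome 4, 131873617 to 131901706), the third of this subgroup, was at 20.1 to 24.5 CPM in vehicle and 20.8 to 23.3 CPM in ISRIB libraries, a log2 fold change of 0.01 (SE 0.08). The subgroup thus held both the lowest fold change of the family and a value near 0.

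Srsf2 (chromosome 11, 116849901 to 116853094), a speckle protein with a part in releasing paused RNA polymerase, stood at 91.8, 83.0, 86.5 and 88.9 CPM in vehicle 1 to 4. In ISRIB 1 to 4 it was at 75.2, 79.4, 61.8 and 76.7 CPM, all below the vehicle libraries. The log2 fold change was -0.25 (SE 0.07). Non-overlapping groups with ISRIB lower were thus seen for 3 members (Srsf5, Srsf6 and Srsf2), and for 4.39% of all genes tested. Nothing is read from this count either, since the family was chosen on this contrast.

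Srsf10 (chromosome 4, 135855747 to 135869908), which acts as a splicing repressor when dephosphorylated in heat shock and mitosis, had the highest fold change of the family after ISRIB. Its values were 51.3, 48.4, 51.3 and 55.8 CPM in vehicle 1 to 4 and 59.0, 54.5, 66.3 and 67.3 CPM in ISRIB 1 to 4. Only ISRIB 2 reached into the vehicle range. The log2 fold change was 0.26 (SE 0.07). Srsf11 (chromosome 3, 158010473 to 158036639), a factor that contacts the U1 and U2AF proteins, was at 68.9 to 79.1 CPM in vehicle and 74.6 to 85.0 CPM in ISRIB libraries, a log2 fold change of 0.12 (SE 0.06).

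Of the shuttling members that also serve mRNA export, Srsf3 (chromosome 17, 29032628 to 29043373) was at 81.2 to 92.4 CPM in vehicle and 69.7 to 93.2 CPM in ISRIB libraries. Srsf7 (chromosome 17, 80200080 to 80207307) was at 52.1 to 61.4 and 46.5 to 63.3 CPM. Their log2 fold changes were -0.13 (SE 0.08) and -0.11 (SE 0.09), with overlapping groups. Srsf1 (chromosome 11, 88047373 to 88053755), the founding member of the family, was at 153 to 169.7 CPM in vehicle and 156 to 177 CPM in ISRIB libraries, a log2 fold change of 0.0090 (SE 0.06). Srsf9 (chromosome 5, 115327177 to 115333080), the relative of Srsf1 with a short tail, was at 41.6 to 48.6 and 41.9 to 50.9 CPM, a log2 fold change of 0.07 (SE 0.08).

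After ISRIB 2.20% of all 12054 genes tested were called, and genes of the wider splicing machinery are set beside that share. As the lists were chosen with earlier results of these data known, their counts are descriptions. No gene was called (edgeR, 4 against 4 libraries) among 23 tested SR-related genes, 9 SR kinase and importer genes, or 31 hnRNP and PTB genes. The same held for 40 core spliceosome genes, 15 decay and exon junction genes, and the cold-inducible pair Cirbp and Rbm3. An unadjusted p under 0.05 was met by 16% of all genes. In the same order these lists held 10, 2, 4, 5, 1 and 1 such genes. DESeq2 called 1 gene of them, an hnRNP gene. Without the filter on low counts 1 SR-related gene was called higher and 1 lower, and 1 SR kinase or importer gene lower. With single libraries left out, up to 1 SR-related gene was called lower. Among 24 other splicing regulators 2 were called, both higher. Rbm5, a regulator of exon choice in apoptosis genes, rose from 71.7 ± 4.93 to 93.9 ± 3.36 CPM (log2 fold change 0.39, SE 0.06, edgeR adjusted p 0.0032). Sfpq, a paraspeckle protein, rose from 160.0 ± 11.4 to 193 ± 10.7 CPM (0.27, SE 0.06, adjusted p 0.0264), a call lost without vehicle 1, vehicle 2, vehicle 3, ISRIB 3 or ISRIB 4 (adjusted p up to 0.0948). Of the kinases that phosphorylate SR proteins in the nucleus, Clk1 was at 66.8 ± 11.8 and 56.2 ± 8.14 CPM (-0.25, SE 0.11, adjusted p 0.29), and Clk4 at 36.6 ± 6.44 and 34.5 ± 6.40 CPM (-0.08, SE 0.13, adjusted p 0.817).

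The bleomycin contrast asked how AT2 cells differed 14 days after injury. Here 9 of the 10 SR protein genes had negative log2 fold changes, and 1 of them, Srsf5, passed the test, where 9.31% of the 11223 genes tested were called lower, 11.2% higher and 20.5% in either direction. At an unadjusted p under 0.05 there were 2 members (Srsf5 and Srsf7), where 33.3% of genes tested met this. The count of members called lower, 1 of 10, is thus close to the background. The median log2 fold change of the 10 was -0.18, beside 0.0024 over all genes tested, of which 49.8% were negative. The median absolute value was 0.20, below the 0.31 of all genes. Log2 fold changes had an SE of 0.12 to 0.18, against 0.06 to 0.10 in the ISRIB contrast.

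**Figure D2:**
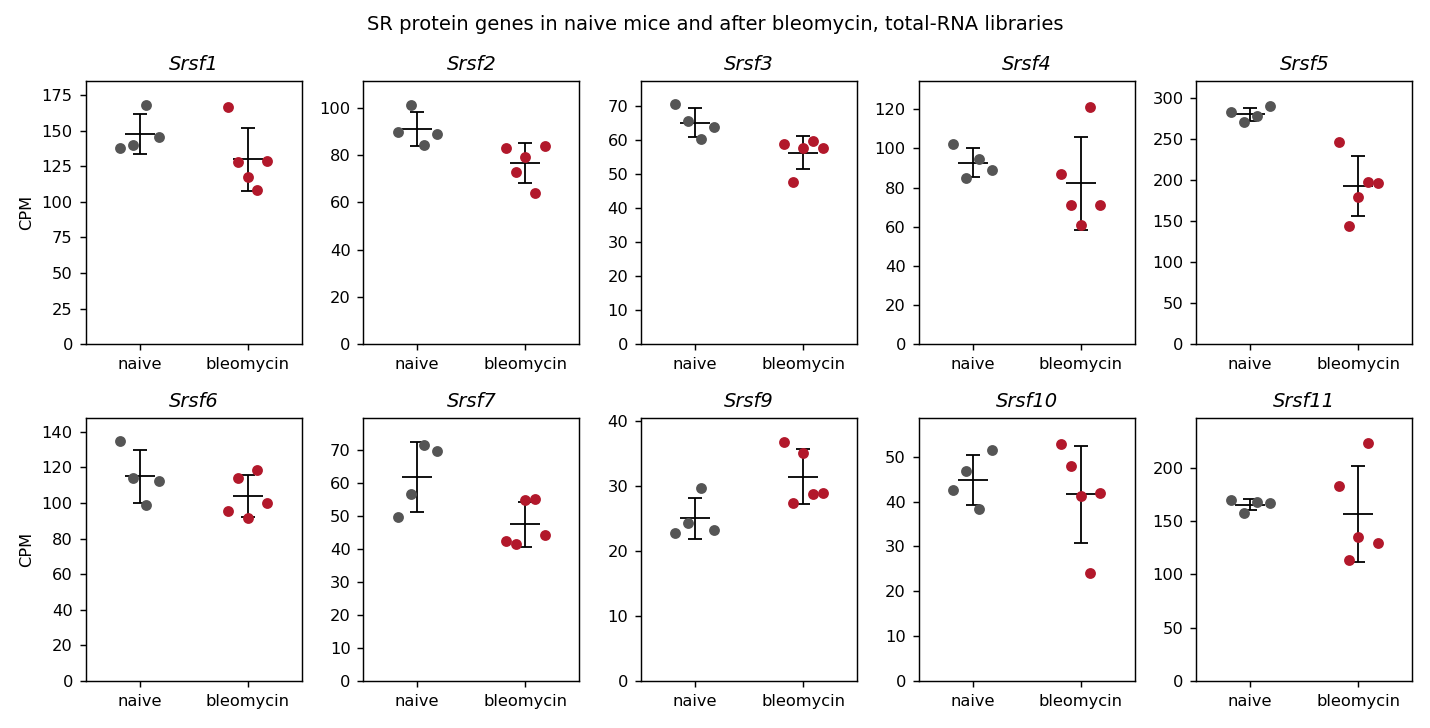
CPM of each SR protein gene (1 panel per gene, linear axis from 0) in the 4 naive and 5 bleomycin total-RNA libraries; points are libraries, in replicate order from left to right, and bars are the mean ± SD. Naive Srsf5 values sit tightly at 271 to 289.7 CPM and all 5 bleomycin libraries lie below them, whereas Srsf4 and Srsf11 spread widely after bleomycin.

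Srsf5 stood at 282, 271, 278 and 289.7 CPM in naive 1 to 4. After bleomycin it was at 246, 144, 179.9, 197 and 197 CPM in libraries 1 to 5. All bleomycin libraries lay below all naive libraries, with bleomycin 1 nearest and bleomycin 2 farthest. The mean of 280.3 ± 7.93 CPM in naive libraries (SD, n = 4) fell to 193 ± 36.9 CPM after bleomycin (n = 5). The log2 fold change was -0.54 (SE 0.13, edgeR adjusted p 0.00653). The call held under all alternatives run, with an adjusted p of at most 0.0265, and the log2 fold change ranged from -0.64 without bleomycin 1 to -0.45 without bleomycin 2. A larger fall was found for 14.0% of the genes tested. Srsf5 made up 25.5% to 26.3% of the family's summed CPM in naive and 17.9% to 23.4% in bleomycin libraries. The difference between the Srsf5 fold changes of the 2 contrasts was not tested, since no fit spans the kits.

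Srsf2 and Srsf3 also had non-overlapping groups but did not pass the test. Srsf2 was at 89.6, 101, 84.1 and 88.8 CPM in naive 1 to 4 and at 83.1, 72.9, 79.3, 63.7 and 83.9 CPM in bleomycin 1 to 5, so that the lowest naive value, 84.1, lay just above the highest bleomycin value, 83.9. Its log2 fold change was -0.25 (SE 0.12, edgeR adjusted p 0.154). Srsf3 was at 70.4, 65.6, 60.4 and 63.8 CPM in naive and at 58.7, 47.6, 57.6, 59.7 and 57.5 CPM in bleomycin libraries, and the fitted log2 fold change was -0.21 (SE 0.12, edgeR adjusted p 0.23). With Srsf5 these were 3 members whose bleomycin libraries all lay lower, where 9.35% of genes tested did so.

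Srsf7 was at 49.6, 56.6, 71.5 and 69.7 CPM in naive and at 42.3, 41.5, 54.8, 55.1 and 44.2 CPM in bleomycin libraries. The groups overlapped through naive 1, and the log2 fold change of -0.38 (SE 0.15, edgeR adjusted p 0.0728) passed the threshold only without naive 1 (adjusted p 0.0484) or without bleomycin 4 (0.0439). Srsf9 was the 1 member with a positive log2 fold change, 0.33 (SE 0.16, adjusted p 0.168). It stood at 22.8, 24.4, 29.7 and 23.2 CPM in naive and at 36.8, 27.4, 35.2, 28.8 and 29.0 CPM in bleomycin libraries, with naive 3 inside the bleomycin range. Only 68 to 227 counts per library lie behind these Srsf9 values.

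Srsf11, Srsf4 and Srsf10 scattered more widely in bleomycin than in naive libraries. Srsf11 lay at 157 to 169 CPM in naive mice but at 183, 113, 135, 223 and 129 CPM in bleomycin 1 to 5, and its log2 fold change of -0.08 (SE 0.16) turned to 0.018 without bleomycin 2. Srsf4 lay at 84.8 to 102 CPM in naive mice and at 86.8, 70.9, 61.0, 121 and 71.1 CPM after bleomycin, a log2 fold change of -0.18 (SE 0.16). Srsf10 lay at 38.4 to 51.6 CPM in naive mice and at 52.9, 47.8, 41.2, 24.1 and 42.0 CPM after bleomycin, and its log2 fold change of -0.10 (SE 0.18) turned to 0.033 without bleomycin 4. Bleomycin 4 thus held the highest Srsf4 and Srsf11 and the lowest Srsf10 of the set. It also had the fewest genes detected, 13940, against 15863 to 19763 in the other total-RNA libraries; its part in these values was not tested. Srsf1 (-0.19, SE 0.13, adjusted p 0.324) and Srsf6 (-0.15, SE 0.12, adjusted p 0.439) had overlapping groups. Srsf1 lay at 138 to 168 CPM in naive and 108 to 166 CPM in bleomycin libraries, and Srsf6 at 98.8 to 135 and 91.7 to 119 CPM.

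**Figure D3:**
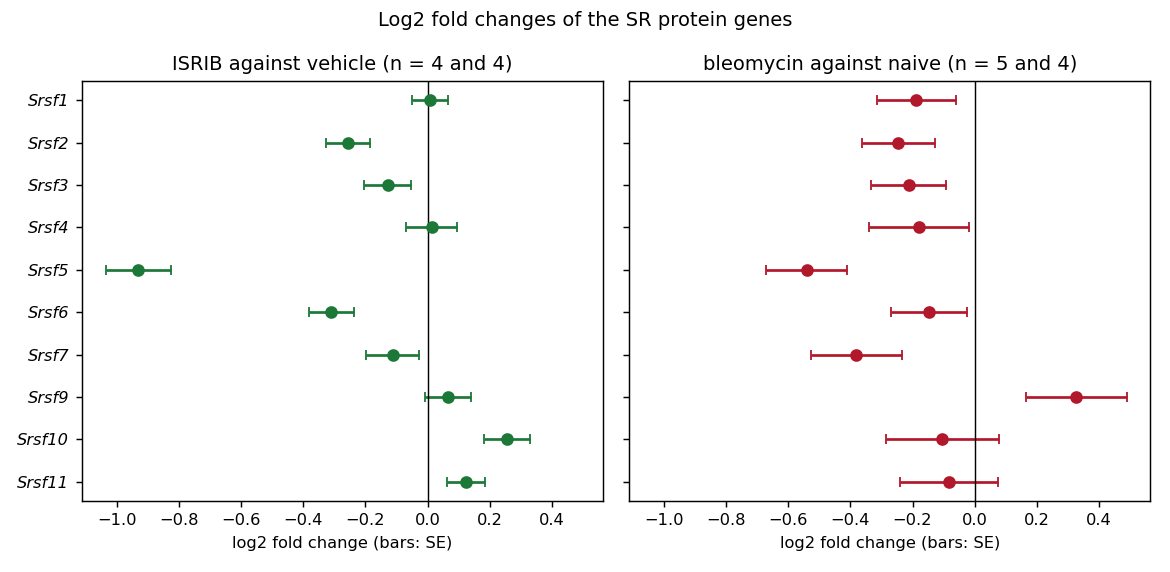
Log2 fold change of each SR protein gene (points) with its SE (bars) for ISRIB against vehicle on the left and bleomycin against naive on the right. Srsf5 is the lowest point in both panels, at -0.93 and -0.54; the fold changes on the left were the basis for choosing the family.

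The same lists are described after bleomycin. They were chosen with earlier results of these data known, so nothing is inferred from the counts called in a list. Of 23 SR-related genes tested 7 were called lower and none higher, where 9.31% of all genes tested were called lower and 11.2% higher. Of the 23, 21 had negative log2 fold changes, with a median of -0.23. Rsrp1, a small arginine-serine-rich protein, stood at 296 ± 25.6 CPM in naive libraries (SD, n = 4) and fell to 156 ± 47.1 CPM (n = 5; -0.92 on the log2 scale, SE 0.19, edgeR adjusted p 0.00184). Pnisr, an SR-rich partner of pinin, fell from 335 ± 27.6 to 204 ± 71.1 CPM (-0.71, SE 0.19, adjusted p 0.0123). Luc7l2, a U1 snRNP-associated protein, fell from 445 ± 49.6 to 283 ± 71.1 CPM (-0.66, SE 0.16, adjusted p 0.00623). The other 4 called genes were Luc7l3, Srrm2, Nktr and Son, with log2 fold changes of -0.55 to -0.43. Srrm2 lost its call without naive 4 or bleomycin 3, Luc7l3 without naive 1, 2 or 4 or bleomycin 3 or 5, and Nktr with RLE scaling, with rRNA-like and mitochondrial genes removed and without any 1 naive library or bleomycin 2, 3 or 5 (adjusted p up to 0.133). The list's count ranged from 4 to 8 when single libraries were left out.

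Of 9 SR kinase and importer genes tested, 3 kinases were called lower and none higher, against the same 9.31% and 11.2% of all genes. Clk1 was at 208, 201, 198 and 206 CPM in naive 1 to 4 and at 148, 59.2, 134, 118 and 120.0 CPM in bleomycin 1 to 5, with no overlap and a log2 fold change of -0.81 (SE 0.18, edgeR adjusted p 0.00356). Its paralog Clk4 fell from 97.5 ± 6.37 to 59.2 ± 17.7 CPM (-0.72, SE 0.18, adjusted p 0.00844). Prpf4b, a kinase of the assembling spliceosome, was at 176 ± 8.48 and 135 ± 20.9 CPM (-0.38, adjusted p 0.0354), a call lost without the filter on low counts and without any 1 of the naive libraries or bleomycin 2, 3 or 5 (adjusted p up to 0.11). The kinases Srpk1 and Srpk2, which act mainly in the cytoplasm, had log2 fold changes of -0.02 (SE 0.14, adjusted p 0.948) and 0.04 (SE 0.16, adjusted p 0.879).

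Of the 40 core spliceosome genes 5 were called higher, 12.5%, which is close to the 11.2% of all genes called higher. None was called lower, where 9.31% of all genes were, and 32 had positive log2 fold changes, with a median of 0.18. Snrpc, the C protein of the U1 particle, rose from 8.35 ± 1.10 to 15.5 ± 2.01 CPM (log2 fold change 0.89, SE 0.22, edgeR adjusted p 0.00864). Sf3a1, a subunit of the U2 particle, rose from 52.5 ± 3.98 to 78.2 ± 16.9 CPM (0.57, SE 0.15, adjusted p 0.0122), a call lost without naive 4 (adjusted p 0.0556). Usp39, needed for tri-snRNP assembly, rose from 27.6 ± 2.08 to 41.1 ± 9.96 CPM (0.59, SE 0.18, adjusted p 0.0274). That call was lost without naive 1, 2 or 4 or bleomycin 2 or 5 (adjusted p up to 0.0847), and the number called in the list ranged from 1 to 7 when single libraries were left out.

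Genes of the hnRNP and PTB families, many of which oppose SR proteins at shared exons, had 4 of 31 called higher and 4 lower, shares near those of all genes tested (11.2% and 9.31%). Pcbp1 (log2 fold change 0.57, SE 0.13, adjusted p 0.00532) and Hnrnpab (0.43, SE 0.11, adjusted p 0.00955) rose. Ptbp1, a repressor of many exons, rose by 0.52 on the log2 scale (adjusted p 0.013), a call lost without naive 4 (0.0537). Ptbp2 (-0.78, adjusted p 0.0246) and Hnrnph3 (-0.56, adjusted p 0.0205) were called lower; the first lost its call without naive 2, 3 or 4 or bleomycin 3 or 5 (adjusted p up to 0.0889) and the second without naive 1 or 4 (up to 0.0854).

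Of 24 other splicing regulators 3 were called higher and 2 lower after bleomycin, together 20.8%, where 20.5% of all genes tested were called. Ybx1, a cold-shock-domain protein, rose from 161 ± 14.1 to 229.6 ± 22.1 CPM (log2 fold change 0.52, SE 0.11, edgeR adjusted p 0.00351). Qk, an RNA-binding regulator of exon inclusion (0.48, adjusted p 0.0497), and Nono, a paraspeckle protein (0.32, adjusted p 0.0492), were at the threshold and lost their calls with RLE scaling and without any 1 of the naive libraries, Qk also without bleomycin 1 or 2 and Nono without the filter on low counts or bleomycin 4 or 5 (adjusted p up to 0.168). Rbm5, called higher after ISRIB, was here called lower, from 225 ± 16.2 to 166 ± 25.4 CPM (-0.44, SE 0.12, adjusted p 0.0155), a call lost without naive 1 (0.0618). Tial1 was called lower as well (-0.43, adjusted p 0.0171), a call lost without naive 3 or the filter on low counts (adjusted p up to 0.0696).

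Of 15 decay and exon junction genes 2 were called lower after bleomycin, 13.3%, near the 9.31% of all genes tested. Smg6, the endonuclease of nonsense-mediated decay, fell from 76.3 ± 9.17 to 53.1 ± 7.84 CPM (log2 fold change -0.53, SE 0.13, edgeR adjusted p 0.00908). Upf2, a core decay factor, was called at -0.35 (adjusted p 0.0417), a call lost without the filter on low counts and without naive 1, 3 or 4 or bleomycin 1, 2, 3 or 4 (adjusted p up to 0.127). Cirbp, the cold-inducible RNA-binding protein, fell from 35.1 ± 7.80 to 15.1 ± 4.54 CPM (-1.20, SE 0.22, adjusted p 9.06e-04), while its relative Rbm3 was at 38.1 ± 6.12 and 38.7 ± 14.0 CPM (0.03, SE 0.21, adjusted p 0.944).

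**Figure D4:**
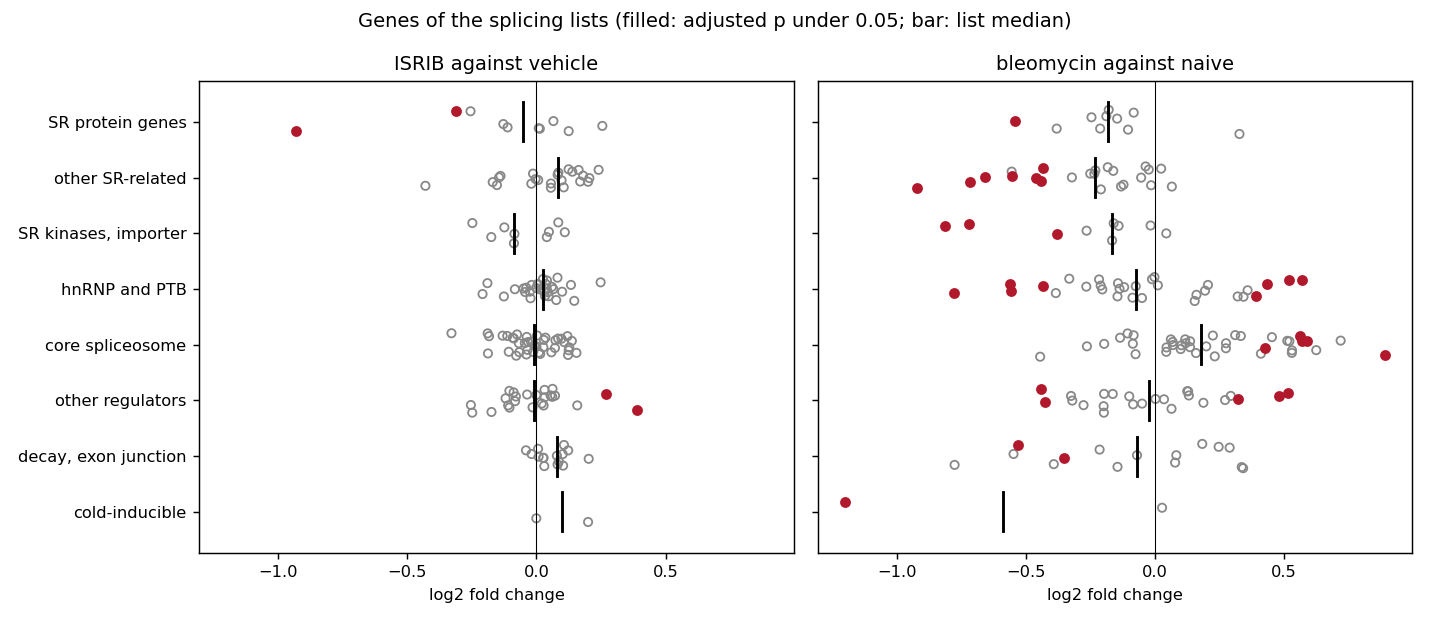
Log2 fold change of every tested gene of the splicing lists, ISRIB against vehicle on the left and bleomycin against naive on the right; filled points have an adjusted p under 0.05 and bars mark list medians. After bleomycin the SR-related and kinase lists lie to the left of 0 (medians -0.23 and -0.17) and the core spliceosome list to the right (0.18).

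Within the bleomycin group, the libraries with the lowest and the highest Srsf5 were also those with the lowest and the highest Neat1 and Malat1. Neat1 and Malat1, long noncoding RNAs of paraspeckles and speckles, were added to the description after the values of the splicing genes had been seen. Neat1 was at 1804 to 2391 CPM in naive libraries and at 2074, 450.2, 1002, 1147 and 952 CPM in bleomycin 1 to 5 (log2 fold change -0.87, SE 0.27, edgeR adjusted p 0.0264). Malat1 was at 39050 to 47820 CPM in naive libraries and at 43610, 13100, 25440, 31590 and 21390 CPM in bleomycin 1 to 5 (-0.66, SE 0.24, adjusted p 0.0561). Bleomycin 1, with the highest Srsf5 of its group, had naive-like levels of both, and bleomycin 2, with the lowest Srsf5, had the lowest of both. Their part in the Srsf5 result was not tested. Without bleomycin 2 the Srsf5 log2 fold change was -0.45 (adjusted p 0.0105). In the poly(A) set Neat1 stood at 178 to 277 CPM in vehicle and 174 to 224 CPM in ISRIB libraries (-0.08, SE 0.11), with overlapping groups, and Malat1 at 656 to 958 and 814 to 1147 CPM (0.32, SE 0.11, adjusted p 0.145).

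**Figure D5:**
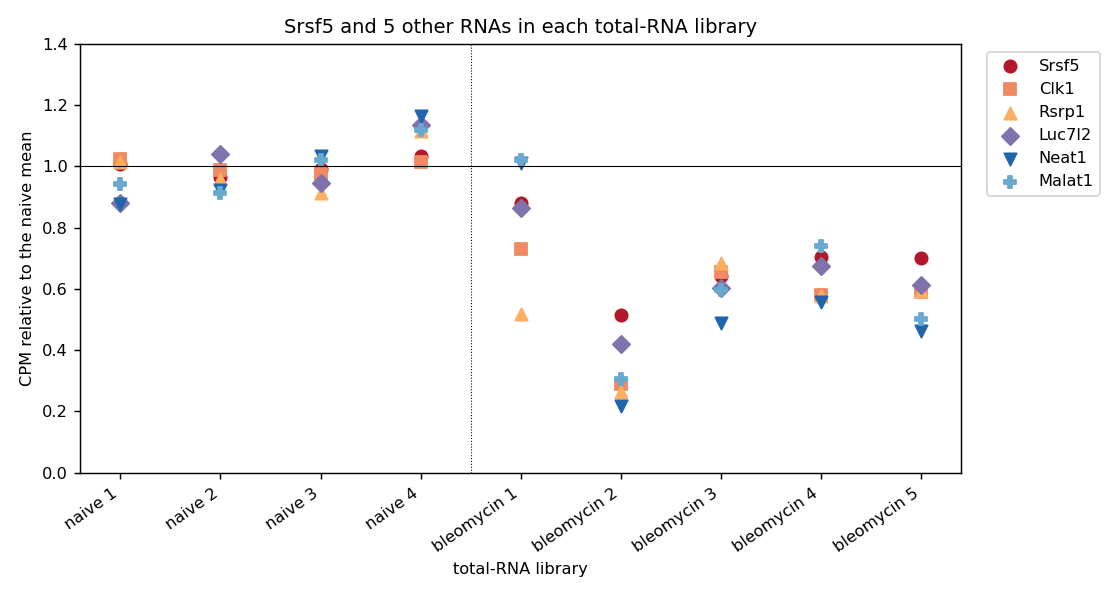
CPM of Srsf5, Clk1, Rsrp1, Luc7l2, Neat1 and Malat1 in each total-RNA library, divided by the gene's naive mean (linear axis from 0, 1 marks the naive mean). All 6 are lowest in bleomycin 2, where Srsf5 stood at 144 CPM, and Neat1 and Malat1 in bleomycin 1 are at the naive level.

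Within groups, the shared variation of some members differed between the poly(A) and total-RNA sets. With each gene's log2 CPM centred on its group mean over the 17 libraries, the median Pearson r over the 45 pairs of members was 0.07, and 27 pairs were positive. The pair of Srsf4 and Srsf11 had the highest r, 0.83, carried by the total-RNA set (0.88 over its 9 libraries, 0.32 over the 8 poly(A) libraries), in which bleomycin 4 was highest for both. Srsf1 and Srsf10 were the 1 pair with r above 0.5 in both sets (0.66 and 0.58). In the poly(A) set Srsf5 ran against Srsf10 (-0.92), a pattern absent from the total-RNA set (0.04). Srsf1 and Srsf7 had an r of 0.89 in the poly(A) set and of -0.21 in the total-RNA set. For Srsf6 and Srsf9 these were 0.09 and -0.82. The median over all pairs therefore does not describe either set, and no median over pairs of other genes was taken. Libraries of a set share a kit and their depths differ, and these coefficients are descriptions.

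Over the same centred values and 5277 genes at 20 CPM or more in both sets, the 5 genes most like Srsf5 were Srcin1 (r = 0.84), Fnbp4 (0.84), Zfp462 (0.81), Rbm6 (0.81) and Cdk8 (0.79), each over 17 libraries. The 5 were picked for the highest r of the 5277 genes, and no test was made on r. None of the 5 was called after ISRIB, where 2.20% of all genes tested were. Their log2 fold changes there were -0.14 to 0.18. After bleomycin 9.31% of all genes tested were called lower. Of the 5 genes, Srcin1 (-1.23, edgeR adjusted p 7.01e-05), Cdk8 (-0.60, adjusted p 0.00969), Fnbp4 (-0.49, adjusted p 0.0156) and Rbm6 (-0.44, adjusted p 0.048) were called lower there. Zfp462 was not (-0.22, adjusted p 0.383).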

How the data were processed

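RNA sequencing counts of 17 libraries of sorted mouse AT2 cells were used. Whole-number counts for 43430 Ensembl IDs were deposited by the authors, with 1 table per kit, and the unit was read from the values. Per the submitters' processing notes, Trimmomatic 0.36, STAR 2.6.0, HTSeq 0.11.2 and the build mm10 were used; their order, the annotation release and the strand setting of counting were not given in the sources used here. Symbols and positions came from GENCODE M21 (GRCm38), which matched 42546 IDs, and promoter sequences from RefSeq (GRCm38.p6), with entries for all 10 members.

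Genes with low counts were removed by filterByExpr (settings 10 per library and 15 in total). After TMM scaling, edgeR 4.0.16 in R 4.3.3 gave two-sided quasi-likelihood F tests with group as the only term, with Benjamini-Hochberg adjustment over all genes tested. CPM use effective library sizes. The SE is the unshrunken log2 fold change divided by the root of F. The procedure was tested on simulated data. Nothing in the labels says that libraries came from separate mice, so p-values measure the spread between these libraries. Replicate pairs of a group differed by more than counting noise (chi-square per degree of freedom 3.51 to 46.7).

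Alternatives were DESeq2 1.42.0, RLE factors, no filter, replicate numbers as a block, removal of ribosomal and mitochondrial genes, and leaving out each library. The members and lists were chosen with earlier results of these data known. Named list genes are the called genes of 5 CPM or more on average that had the largest log2 fold changes, up to 3 per list and direction, of which 1 is not reported here; genes most like Srsf5 are the 5 with the highest r at 20 CPM or more in both sets.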

Additional observations from a re-analysis of the deposited data

Results flagged for a closer look

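Of 40 groups of 4 or 5 libraries (10 members in 4 groups), 2 had 1 library far from the others by Dixon's test; chance flags about 1 in 20, so 2 were expected. Srsf9 in ISRIB 1 was at 41.9 CPM, below the other ISRIB libraries at 49.5 to 50.9 CPM. Srsf3 in bleomycin 2 was at 47.6 CPM, below the other bleomycin libraries at 57.5 to 59.7 CPM.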

How the results depend on the processing

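The number of genes called after ISRIB (265) was 400 with DESeq2 and 648 without the filter on low counts, and 86 to 269 with single libraries left out (86 without vehicle 1, 102 without vehicle 2, 159 without ISRIB 4). The number of SR protein genes called there (2) was 3 with DESeq2 (Srsf2 joins), 4 without the filter (Srsf2 and Srsf10 join) and 1 to 3 with single libraries left out (1 without vehicle 1, vehicle 2, ISRIB 1 or ISRIB 3), and the median of the 10 was -0.12 (without ISRIB 4) to -0.021. After bleomycin (2304 genes, 1 member) leaving out libraries gave 1554 to 2584 genes and 1 to 2 members (2 without naive 1 or bleomycin 4). With single libraries left out, the bleomycin log2 fold change ranged from -0.24 to 0.018 for Srsf11 (positive without bleomycin 2) and from -0.19 to 0.033 for Srsf10 (positive without bleomycin 4). List medians that turned sign ranged from -0.11 to 0.037 for SR kinases after ISRIB (positive without vehicle 4), from -0.14 to 0.0084 for decay genes after bleomycin (without naive 1) and from -0.10 to 0.00028 for hnRNP genes after bleomycin (without naive 4); the cause was not tested. With more low-count genes tested, the bleomycin median of all genes was -0.29 with DESeq2 and -0.27 without the filter, while Srsf5 stayed at -0.54 and -0.52. Of 31 list genes called after bleomycin, 14 were called under all 14 settings.

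Same-numbered libraries did not deviate together (residual correlations -0.11 to 0.08 after ISRIB and -0.04 to 0.05 after bleomycin), and not every library correlated best with its own number. With the replicate number as a block, 277 genes and 3 members (Srsf10 joins, adjusted p 0.0465) were called after ISRIB and 2187 genes and 1 member after bleomycin; Srsf5 was at -0.94 and -0.57. Of the list genes named after bleomycin, Nktr, Ptbp2, Usp39, Qk and Nono were not called with the block.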
